A study of Homo sapiens with 2 samples.

Results

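Olfactory receptor genes encode the G protein-coupled receptors with which sensory neurons of the nose detect odorants, and they form the largest gene family of the human genome. Each mature olfactory neuron expresses a single receptor allele, and in that neuron the receptor gene clusters of different chromosomes gather around the chosen gene, while in other tissues most of the genes are silent. The genes lie in tandem arrays, and on the short arm of chromosome 11 an array of class I receptors, the class related to the receptors of fish, surrounds the beta-globin genes, which are active in red cell precursors. Here the promoters of the chromosome 11 receptor genes were followed in promoter-capture Hi-C lists of K562 cells, a chronic myelogenous leukaemia line with erythroid features. No expression was measured in this series, so the silence of the family in these cells is background and was not checked.

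The series holds 2 libraries, 1 of cells that received the vehicle DMSO and 1 of cells that received ponatinib, which blocks the ABL kinase, at 100 nM, each for 24 h and each from the same number of cells. Chromatin was crosslinked, cut with HindIII and ligated, and fragments with promoters were captured as baits. With 1 library per treatment no test of the treatment exists, and every interval below covers counting error only. The deposited lists give 84049 interactions for DMSO and 91305 for ponatinib as pairs of fragments with a score. They give no read counts, so the depth of the libraries is unknown.

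The members were the protein-coding genes of chromosome 11 whose symbol is OR followed by a digit and which have an end on a listed bait fragment. In the gene table of hg38, 168 such genes lie on the chromosome itself. Of these 95 had a listed bait and 73 did not, and the latter were not analysed here. Over the whole genome 13715 of 19884 protein-coding genes had a listed bait. By its numbers alone OR8U9 would be a 96th member, but its row gives a position on another sequence than the chromosome proper, and it was set apart. The 95 members lay on 90 bait fragments, of which 82 held 1 member and 8 held 2. Members on a common fragment have the interactions of that fragment in common. OR51C1, OR8B2 and OR6T1 each also had another bait fragment of their own. Only the fragments of OR52W1 and OR2D3 also held an end of a gene outside the family.

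Runs of receptor genes with gaps under 1 Mb were taken as clusters, numbered along the chromosome. Cluster 1, chr11:4367263-7941708, contains the beta-globin genes and held 45 members on 42 bait fragments. The others with members were cluster 2, chr11:48216810-48489722, with 2 members, cluster 4, chr11:54603069-56989843, with 22, cluster 5, chr11:58023881-59713845, with 13, and cluster 7, chr11:123753580-124571374, with 13. Clusters 3 and 6 held 2 genes and 1 gene and had no listed bait. All 39 class I members, of the OR51, OR52 and OR56 families, lay in cluster 1, along with 6 of the 56 class II members.

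Promoter sequences are shown for the members that the numbers below turn on, because their base composition sets them apart from most promoters in the genome. RefSeq (GRCh38.p14) gave a promoter, 250 bases before to 50 bases after the start, for 75 of the 95 members, and 63 of these 75 starts lay on the member's bait fragment. The other 12 lay a median of 2.05 kb from it. In the OR5B21 and OR51V1 sequences below, the base listed as the start opens an ATG, the letters of a start codon. Whether the listed starts of the members are those of transcription or of translation was not checked. Comparisons with the promoters of other genes may therefore set unlike stretches side by side. The 3 sequences that follow have every CG dinucleotide in capitals. OR5B21 (chr11:58508056-58508355, minus strand) and OR51V1 (chr11:5200633-5200932, minus strand) are 2 of the best connected members, and SSRP1 (chr11:57335843-57336142, minus strand), which encodes a subunit of the histone chaperone FACT, lies on a fragment that contacted OR5B21.
OR5B21: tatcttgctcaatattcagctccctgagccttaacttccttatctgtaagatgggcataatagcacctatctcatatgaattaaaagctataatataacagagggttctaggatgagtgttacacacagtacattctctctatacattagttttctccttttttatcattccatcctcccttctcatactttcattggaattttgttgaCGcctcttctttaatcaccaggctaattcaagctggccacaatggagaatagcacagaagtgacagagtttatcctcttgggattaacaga
OR51V1: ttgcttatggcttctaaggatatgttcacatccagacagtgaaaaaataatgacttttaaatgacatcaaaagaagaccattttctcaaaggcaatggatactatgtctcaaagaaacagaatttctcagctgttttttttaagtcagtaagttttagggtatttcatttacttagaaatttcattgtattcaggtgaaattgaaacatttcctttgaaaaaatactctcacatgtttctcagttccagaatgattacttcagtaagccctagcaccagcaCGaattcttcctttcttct
SSRP1: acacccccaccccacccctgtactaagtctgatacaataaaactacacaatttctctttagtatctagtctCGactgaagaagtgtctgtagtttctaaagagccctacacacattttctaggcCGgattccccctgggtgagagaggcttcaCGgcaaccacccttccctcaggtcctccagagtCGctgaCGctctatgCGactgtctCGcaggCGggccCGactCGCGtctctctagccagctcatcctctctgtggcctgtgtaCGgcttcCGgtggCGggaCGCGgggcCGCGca
OR5B21 and OR51V1 each held 1 CG in 300 bases, and SSRP1 held 18. The median GC content of the 75 member promoters was 37.3%, against 62.7% for the promoters of 15842 genes. Their median ratio of observed to expected CG was 0.128, against 0.761 for those genes. A ratio of at least 0.6, a usual mark of a CpG island, was reached by 2 of the 75 (2.67%) and by 65.6% of all. Similar in composition were the 60 receptor genes of chromosome 11 that had such a promoter but no listed bait (median GC 37.0%). So were 179 receptor genes of other chromosomes (38.3%).

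The pair of promoters below have TATAAA and TAATTA in capitals, the letters of a TATA box and of a homeodomain core such as that of LHX2, a factor of olfactory neurons. OR51F1 (chr11:4769889-4770188, minus strand) was among the members with more interactions in the ponatinib list, and OR8B3 (chr11:124398975-124399274, minus strand) was among the best connected of cluster 7.
OR51F1: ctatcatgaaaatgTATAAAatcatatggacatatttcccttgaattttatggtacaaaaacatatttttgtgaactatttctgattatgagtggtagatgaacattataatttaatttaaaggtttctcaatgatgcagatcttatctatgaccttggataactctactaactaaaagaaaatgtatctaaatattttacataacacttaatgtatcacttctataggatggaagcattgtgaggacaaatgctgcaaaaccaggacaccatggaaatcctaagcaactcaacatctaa
OR8B3: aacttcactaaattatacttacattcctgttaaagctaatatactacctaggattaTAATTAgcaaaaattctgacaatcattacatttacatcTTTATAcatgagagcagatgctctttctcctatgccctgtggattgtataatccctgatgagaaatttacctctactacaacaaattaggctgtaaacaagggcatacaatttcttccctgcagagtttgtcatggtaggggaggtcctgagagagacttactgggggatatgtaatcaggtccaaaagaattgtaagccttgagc
Searched on both strands, TATAAA was in 26 of 75 member promoters (34.7%, 95% exact binomial interval 24.0% to 46.5%) and in 9.75% of all promoters of the same length. TAATTA was in 16 (21.3%, 12.7% to 32.3%), against 3.36% of all. CCAAT was in 29 (38.7%, 27.6% to 50.6%), close to the 36.4% of all promoters. The shares were not particular to the members. Receptor genes of chromosome 11 without a listed bait had TATAAA in 36.7% and TAATTA in 28.3%, and those of other chromosomes in 35.2% and 21.8%. In the printed sequences TATAAA lies at -236 from the listed start of OR51F1. In OR8B3 it lies at -156 on the other strand, and TAATTA at -194. All of these are matches of letters in AT-rich sequence and not binding sites.

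The members had few interactions in either list, and the numbers were nearly equal between the lists. They took part in 291 interactions in DMSO and 289 in ponatinib. The ratio was 0.993 (95% interval 0.841 to 1.17), and the ratio of the lengths of the whole lists, 1.09, lies inside that interval. A member had from 0 to 20 interactions in DMSO, with a median of 3, and from 0 to 19 in ponatinib, with a median of 4. The median over all genes with a bait was 4 in both lists, so the typical member did not stand apart. The upper end did stand apart from all genes. In DMSO 8 members (8.42%, 3.71% to 15.9%) had 10 or more interactions, against 21.7% of all genes. In ponatinib 9 did (9.47%, 4.42% to 17.2%), against 24.0%. Counted by fragment, the share was 6.67% in both lists, against 16.1% and 18.2% of all bait fragments. Receptor genes of other chromosomes had 6.90% in DMSO and 10.3% in ponatinib, and keratin and keratin-associated protein genes 6.49% in both. The low share was thus not particular to the members. Clustered protocadherins differed, with 16 of 32 fragments in DMSO and 18 in ponatinib. Of the 95 members 3 had no interaction in DMSO and 10 had none in ponatinib. The plot of interactions per fragment shows that most fragments of every cluster lay between 0 and 7, with single fragments far above.

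**Figure D1:**
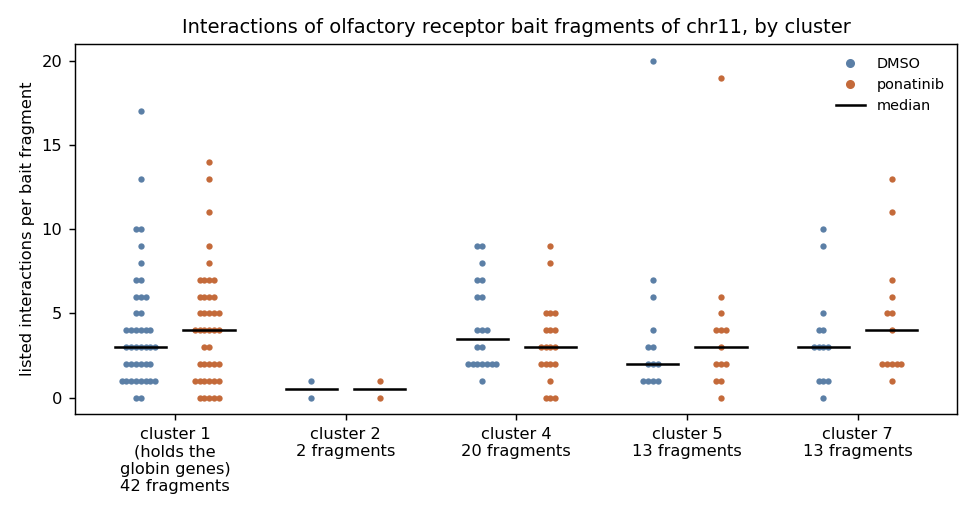
Number of listed interactions of each olfactory receptor bait fragment (points) by gene cluster of chromosome 11, for the DMSO and the ponatinib list, with the median as a black line. The fragment of OR5B21 in cluster 5, at 20 and 19, stands apart from the other 12 fragments of its cluster in both lists, and the highest fragment of cluster 1 is that of OR51V1, at 17 and 14.

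The connections were concentrated on few fragments. The 10 best connected fragments took part in 171 of the 492 distinct member interactions of both lists, or 34.8%. OR5B21 had 20 interactions in DMSO and 19 in ponatinib. OR51C1, the only one of the 12 best connected members besides OR8B2 with more than 1 bait fragment, had 18 and 14. OR51V1, the member next to HBB, had 17 and 14. OR52I1 and OR52I2 share a fragment, which had 13 in each list. OR8B2 had 10 and 15, and OR8B3, on a fragment that OR8B2 also touches, had 10 and 13. OR52K1 had 10 and 11, OR8B4 9 and 11, OR8U3 8 and 9, OR5AP2 9 and 8, and OR51B4 9 and 7. Each of them had at least 7 interactions in both lists, although the interactions themselves were often not the same. Of the 27 distinct interactions of OR5B21 12 were in both lists, and of the 21 of OR51V1 10, but of the 22 on the fragment of OR8B3 only 1.

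At the other end of cluster 1, OR10A5, OR51A2 and OR51I2 had 1 interaction in DMSO and 0 in ponatinib, and OR2AG1 had 1 in each. In DMSO the 6 class II members of the cluster had 14 interactions, a median of 2, and in ponatinib 11, a median of 1. The 39 class I members had 126 and 128, with a median of 4 in both lists. The class II members inside cluster 1 ranged from 1 to 7 in DMSO and from 0 to 6 in ponatinib, within the range of 0 to 18 and 0 to 14 of class I.

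Differences between the lists for single members were small in number and within the background of the genome. The rule for a call was a sum of at least 5 interactions from both lists together with a ratio of at least 2-fold after 1 was added to each number. Of 66 members tested 5 were called for more interactions in ponatinib (7.58%), against 9.91% of all genes tested. For fewer interactions 3 were called (4.55%), against 6.26% of all genes. In total 38 members had more, 38 fewer and 19 the same number, and the median log2 ratio of the tested members was 0.14, against 0.08 for all 9786 genes tested.

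OR52N5 had 0 interactions in DMSO and 6 in ponatinib, all inside cluster 1 and all with fragments that overlap another receptor gene. The strongest of these was with the fragment of OR52I1 and OR52I2 at 1180 kb, with a score of 12.41. OR8D2 had 1 and 6, at 124 to 246 kb, none with a receptor gene. OR51F1 had 1 and 5, OR10W1 1 and 4, and OR51A4 2 and 6. In the other direction OR56A3 had 5 in DMSO and 1 in ponatinib, OR5AR1 had 7 and 2, and OR8J3 9 and 4. The single interactions behind these differences mostly had scores between 5 and 8, near the lowest score listed. When scores of at least 7 were required, none of these 8 members had enough interactions to be called.

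Most partners lay in the cluster of the member itself. In DMSO 198 of 291 interactions (68.0%, 62.3% to 73.4%) joined a member to a fragment of its own cluster, and in ponatinib 195 of 289 (67.5%, 61.7% to 72.8%). Another 57 in each list had a partner elsewhere on chromosome 11. Partners on other chromosomes made up 17 (5.84%) and 15 (5.19%), against 7.33% and 7.23% of all other interactions. The difference from those was -1.49 percentage points in DMSO (95% Newcombe interval -3.66 to 1.83) and -2.04 in ponatinib (-4.07 to 1.16). Against all other interactions neither excess nor lack was thus detectable. Other interactions of chromosome 11 had lower shares, 3.40% and 2.86%. From these the members differed by 2.44 points in DMSO (0.213 to 5.78) and 2.33 in ponatinib (0.258 to 5.55). The strongest member interaction with another chromosome joined OR4D9 to a bait fragment inside NCKAP5 on chromosome 2. It had a score of 15.69 in ponatinib and no entry in DMSO. That of OR5D18 with a fragment inside NBEA on chromosome 13 had 9.92 in DMSO only, and that of OR10W1 on chromosome 3 had 8.9 in ponatinib only. No interaction with another chromosome was in both lists. Receptor genes of other chromosomes were not searched for among the partners.

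Contacts between receptor genes of chromosome 11, the only ones searched for among the partners, lay nearly all within clusters. By definition clusters are at least 1 Mb apart, and no member interaction on the chromosome spanned more than 2000 kb. The part of distance in the near absence of contacts between clusters was not tested. The partner fragment overlapped another receptor gene in 108 interactions in DMSO (37.1%, 31.5% to 42.9%) and 106 in ponatinib (36.7%, 31.1% to 42.5%), and both ends were member baits in 69 and 70. Only 2 distinct interactions joined different clusters of chromosome 11. OR5AP2 of cluster 4 and OR5B17 of cluster 5 were joined over 1712 kb with a score of 6.11 in DMSO and 6.17 in ponatinib, and the fragments of OR5M1 and OR6Q1, of the same clusters, were joined in DMSO only. Bait-to-bait pairs made up 44.3% of member interactions in DMSO and 47.4% in ponatinib, against 19% and 18.6% of all others, a difference of 25.3 points (19.7 to 31.1) and 28.8 points (23.1 to 34.6). Listed baits also stood closer together there, at 18.5 per Mb in the cluster spans and 8.04 per Mb in the rest of the chromosome, and the part of this spacing in the difference was not tested.

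Some fragments were partners of many members. The widest reach, 11 member fragments over both lists, was that of a fragment of an alternate version of the chromosome 11 sequence, and another fragment of that contig was joined to 8. Both are taken up with the scores below. On the chromosome itself, the fragment of OR52I1 and OR52I2 and that of OR52E2 were each joined to 9 other member fragments over both lists. The fragment of OR5W2 in cluster 4 was joined to 8. A fragment at chr11:4991139-4997075, which holds ends of OR51L1 and of MMP26, a matrix metalloproteinase gene that lies among the receptors, was joined to 6. It is not itself a listed bait. OR5B21 was joined to 6 members of its cluster, of which OR6Q1 had the highest scores, 8.12 in DMSO and 13.84 in ponatinib.

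OR5B21 reached far outside its cluster. Of its 27 distinct interactions 20 left the cluster, all in one direction, to chr11:57313713-57882095 at distances of 631 to 1191 kb. Of these 16 were in DMSO, 14 in ponatinib and 10 in both. Of the 20 partner fragments 12 held an end of a gene outside the family, among them SSRP1, TIMM10, a chaperone gene of mitochondrial import, UBE2L6, a ubiquitin-conjugating enzyme gene, CLP1, an RNA kinase gene, and ZDHHC5, a palmitoyltransferase gene. The fragment of SSRP1 had a score of 8.61 in DMSO and 12.1 in ponatinib, and that of CLP1 and YPEL4 had 12.86 and 12.98. The fragment of ZDHHC5 had 9.04 and 29.1, and the one before it, which holds no gene end, 9.9 and 33.08, the highest score of any member interaction outside the alternate sequences described below. Scores were not normalised between the libraries. Of the other members of cluster 5, 3 reached the same stretch with 1 interaction each: OR9Q1 the fragment of UBE2L6 (6.4, DMSO only), and OR10W1 and OR5B17 a fragment of SLC43A1 (5.27 and 5.86, ponatinib only). The bait fragment of OR5B21, whose promoter held 1 CG, was thus joined to the fragment of SSRP1, whose promoter, printed above, held 18. The CG content of the other partners was not examined.

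A second block of partners lay before cluster 1. OR52K1 had 13 of its 15 distinct interactions with chr11:4143673-4217469, at 266 to 338 kb, where no partner fragment overlaps a protein-coding gene and none is a bait. The highest scores were 15.09 in DMSO and 16.78 in ponatinib, both with chr11:4184983-4195229. The same stretch of 73.8 kb was reached by 7 members in all, OR52B4, OR52K2, OR52K1, OR52M1, OR52I1, OR52I2 and OR51C1, with 15 interactions in DMSO, 19 in ponatinib and 6 in both. OR8B3, with OR8B2, reached beyond the far end of cluster 7 in 15 interactions at 188 to 537 kb, and OR8B4 in 10 at 151 to 436 kb, but with scores of at most 9.73.

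Distances were somewhat longer than in the lists as a whole. The median was 299 kb in DMSO (263 to 331, from order statistics) and 293 kb in ponatinib (252 to 314), against 234 and 242 kb over all interactions. Beyond 500 kb lay 23.9% of same-chromosome member interactions in DMSO and 21.8% in ponatinib. The difference from all other interactions was 5.78 points in DMSO (0.949 to 11.4) and 2.25 in ponatinib (-2.41 to 7.76), and from the other interactions of chromosome 11 it was 11.3 (6.36 to 16.9) and 6.91 (2.15 to 12.5). None spanned more than 2000 kb, where 2.18% and 2.44% of all same-chromosome interactions lay. Bait fragments of genes outside the family within the cluster spans had shorter medians of 121 and 128 kb. Long distances were not particular to the members. Keratin and keratin-associated protein genes had medians of 298 kb in DMSO and 361 kb in ponatinib, with 26.7% and 31.4% beyond 500 kb. Clustered protocadherins had shorter medians, 206 and 216 kb.

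Scores were mostly low, with medians over all member interactions of 6.12 in DMSO (5.90 to 6.31) and 6.35 in ponatinib (6.06 to 6.64), against 6.47 and 6.55 over the whole lists. A score of 10 or more was reached by 11.7% of member interactions in DMSO and 15.6% in ponatinib. Of these high scores, 18 of 34 in DMSO and 21 of 45 in ponatinib had a partner on an alternate sequence, described below. Without such partners, a choice made after seeing the data, the shares were 5.88% in DMSO and 8.99% in ponatinib. The difference from all other interactions was then -8.96 points (-11.2 to -5.50) and -7.29 points (-10.2 to -3.25). With such partners included it was -3.24 points (-6.45 to 0.968) and -0.789 points (-4.52 to 3.85). Receptor genes of other chromosomes reached 10 or more in 9.70% of interactions in DMSO and 9.24% in ponatinib. Keratin and keratin-associated protein genes did so in 8.64% and 8.88%, and clustered protocadherins in 13.3% and 11.3%.

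The highest scores had partners on alternate sequences, that is, on contigs that give another version of a part of chromosome 11. There were 19 such interactions in DMSO (6.53%) and 22 in ponatinib (7.61%), against 0.211% and 0.198% of all other interactions. The 13 member fragments lay between positions 55638304 and 56670102 in cluster 4. OR8U3 had the highest scores, 171.99 in DMSO and 118.54 in ponatinib with one contig fragment, and 70.75 and 135.56 with another. OR5AP2 reached 43.7 in DMSO and 26.66 in ponatinib, and OR8J3 11.64 and 28.17. Both contigs had interactions with member fragments only. The gene table holds 3 further receptor genes, OR8U8, OR8U9 and OR9G9, on sequences that it does not name, and read on these contigs their positions fall inside the partner fragments. Distances could not be given. The part of the alternate versions of the sequence in these scores was not tested. Without these interactions the share within the cluster was 73.0% in ponatinib instead of 67.5%.

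**Figure D2:**
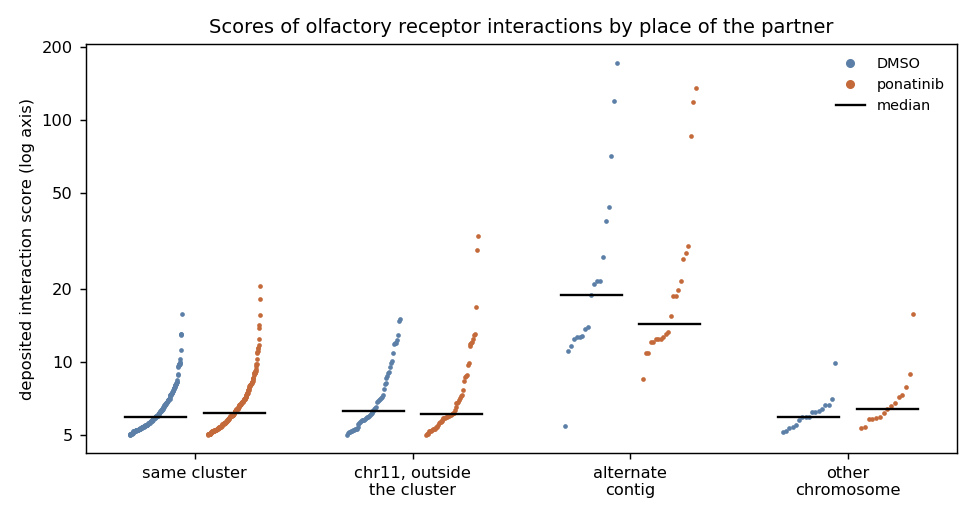
Deposited score of each member interaction (points, log axis) by place of the partner, for DMSO and ponatinib, with the median as a black line. Partners on alternate contigs had medians of 19 and 14.4 and reached 171.99, while same-cluster partners had medians of 5.92 and 6.13 and reached 15.7 and 20.55.

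Fewer member interactions recurred between the lists than elsewhere. Of the 492 distinct interactions 88 were in both lists, which is 30.2% of those in DMSO (25% to 35.9%) and 30.4% of those in ponatinib (25.2% to 36.1%). Over all other interactions the shares were 44.3% and 40.8%. The difference was -14.1 points in DMSO (-19.1 to -8.54) and -10.3 points in ponatinib (-15.3 to -4.78), and against other interactions of chromosome 11 it was -16.8 (-22.0 to -11.2) and -12.0 (-17.1 to -6.29). Below 100 kb the members did not stand apart, with 57.9% in DMSO against 61.0% of all interactions. At 200 to 500 kb they had 27.4% (19.1% to 36.9%) against 40.6%. Among scores of 10 or more, alternate sequences included, 70.6% (52.5% to 84.9%) of the DMSO interactions were shared, against 84.0% of all, so both the members and the rest recurred more often at high scores. Receptor genes of other chromosomes, with 330 and 314 interactions, had shares of 33.3% and 35.0%, and keratin and keratin-associated protein genes, another clustered family of specialised tissues, had 27.2% and 25.5%. The clustered protocadherins had 50.8% and 47.3%. Shares as low were thus also seen in other clustered families. The share depended on matching identical fragments. When both ends could lie within 5 kb, it was 48.8% in DMSO and 48.1% in ponatinib, and 67.5% and 66.6% over all interactions. The ponatinib score was the higher of the pair in 44 of the 88, and in 53.6% of all interactions present in both lists.

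**Figure D3:**
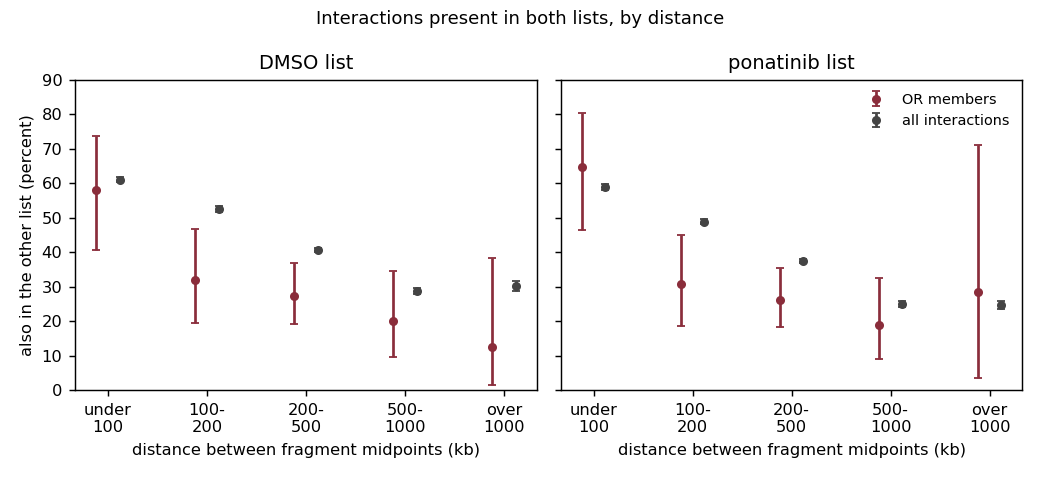
Share of interactions also present in the other list (percent, points, with 95% exact binomial intervals) by distance between fragments in kb, for olfactory receptor members of chromosome 11 and for all interactions. In the DMSO list members lie at 32.0%, 27.4% and 20.0% between 100 and 1000 kb, where all interactions lie at 52.5%, 40.6% and 28.8%. In both lists the intervals overlap below 100 kb and beyond 500 kb, and are apart only between 100 and 500 kb.

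The cluster around the beta-globin genes was compared with the other clusters. Its 42 fragments had 140 interactions in DMSO and 139 in ponatinib, and the 48 other fragments 151 and 150. Per fragment the median was 3 in DMSO (2 to 4) and 4 in ponatinib (2 to 5), against 3 (2 to 4) in both lists for the others, so the numbers did not differ beyond their intervals. What differed was the place of the partners. In cluster 1 84.3% of interactions stayed in the cluster in DMSO and 82.7% in ponatinib, against 53% and 53.3% in the others, a difference of 31.3 points (20.9 to 40.7) and 29.4 points (18.8 to 39.0). Among partners on the chromosome proper the shares were 88.1% and 85.2% against 66.1% and 68.4%, a difference of 21.9 (11.7 to 31.8) and 16.8 points (6.41 to 27.0). Cluster 1 is also the longest, at 3574 kb against at most 2387 kb, and the part of length in this was not tested. Partners with another receptor gene made up 41.4% in DMSO and 49.6% in ponatinib in cluster 1, against 33.1% and 24.7%. That difference was 8.32 points in DMSO (-2.76 to 19.2) and 25 points in ponatinib (13.9 to 35.3). The other clusters were not alike: cluster 4 had 46.2% in DMSO and 41.7% in ponatinib. Cluster 5 had 28.9% and 20.0%, and cluster 7 had 21.4% and 15.8%. Partners on alternate contigs, which were all joined to cluster 4, were counted as holding no receptor gene. The shares of interactions in both lists, 32.9% against 27.8% in DMSO, differed by 5.04 points (-5.47 to 15.5).

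**Figure D4:**
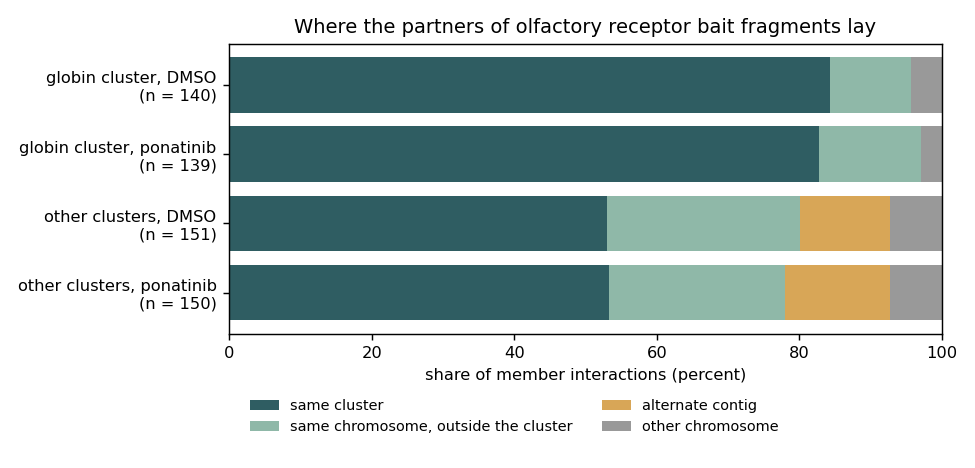
Share of member interactions (percent) by place of the partner, for the cluster that holds the globin genes and for the other clusters, in the DMSO and the ponatinib list. The dark bars, partners in the same cluster, take 84.3% and 82.7% in the globin cluster and 53% and 53.3% in the others, and partners on alternate contigs occur in the other clusters only.

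Among the other clusters, cluster 4 had 65 interactions in DMSO and 48 in ponatinib, cluster 5 had 45 in each, and cluster 7 had 42 and 57. Of these 17, 17 and 9 were in both lists. The share within the cluster was 60% in DMSO (47.1% to 72.0%) and 52.1% in ponatinib (37.2% to 66.7%) for cluster 4 and 46.7% in both for cluster 5. For cluster 7 it was 47.6% (32.0% to 63.6%) and 59.6% (45.8% to 72.4%). These intervals overlap between the lists in each cluster.

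Few member interactions had a partner in the globin region. This region is 69.5 kb long, within the 3574 kb of cluster 1, and the part of its length in the low number was not tested. The globin region, from HBB to 25 kb beyond HBE1, a stretch that includes the locus control region, the enhancer of the globin genes, held the partner of 2 member interactions in DMSO and 3 in ponatinib. OR51V1 was joined to chr11:5289467-5292119 in both lists, with scores of 6.45 in DMSO and 7.96 in ponatinib. It was joined to the fragment after it, chr11:5292120-5293638, in DMSO only (7.83) and to the fragment before it, chr11:5286158-5289466, in ponatinib only (5.84). These fragments lie beyond HBE1 and hold no gene end. The fourth distinct interaction joined OR52A5 to the fragment of HBD, which encodes delta-globin, with 8.54 in ponatinib and no entry in DMSO. The baits of HBB, HBD and HBG1 themselves had 2, 6 and 5 interactions in DMSO and 1, 10 and 5 in ponatinib, and the pair of HBD with OR52A5 was the only one with a member. HBG2 and HBE1 had no listed bait.

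In DMSO 36 member interactions (12.4%) spanned the globin region, joining fragments on either side of it, and in ponatinib 34 (11.8%) did. OR51V1, 24.8 kb from HBB, was joined across the region to OR51B4 with a score of 7.94 in DMSO and 6.85 in ponatinib, and to OR51B2 with 5.49 and 6.37. It was also joined to fragments inside OR51B5, a gene with a long span, of which chr11:5370716-5371614 had the highest scores, 7.99 and 11.45. On its own side its highest scores were with a bait fragment at chr11:5121004-5124695, 10.01 and 14.25. OR52A5 was joined to a fragment inside OR51B5 and OR51M1 at 259 kb, with 5.49 in DMSO and 15.58 in ponatinib.

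The members with a gene end within 100 kb of HBB to HBE1 were OR52A5, OR51V1, OR51B4, OR51B2 and OR51B5, 5 in all. The bait fragment of OR51B5 lies at the far end of the gene, 235 kb from that stretch, and those of the other 4 within 91.8 kb. They had 7, 17, 9, 3 and 4 interactions in DMSO and 5, 14, 7, 5 and 6 in ponatinib, in that order. Their medians were 7 and 6, against 3 and 4 for the 40 other members of cluster 1, whose values ranged from 0 to 18 and from 0 to 14. The values of the 5 lay inside these ranges in both lists. For the 4 whose bait itself lay within 100 kb, a choice made after seeing the data, the medians were 8 and 6, against 3 and 4 for the 41 others.

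**Figure D5:**
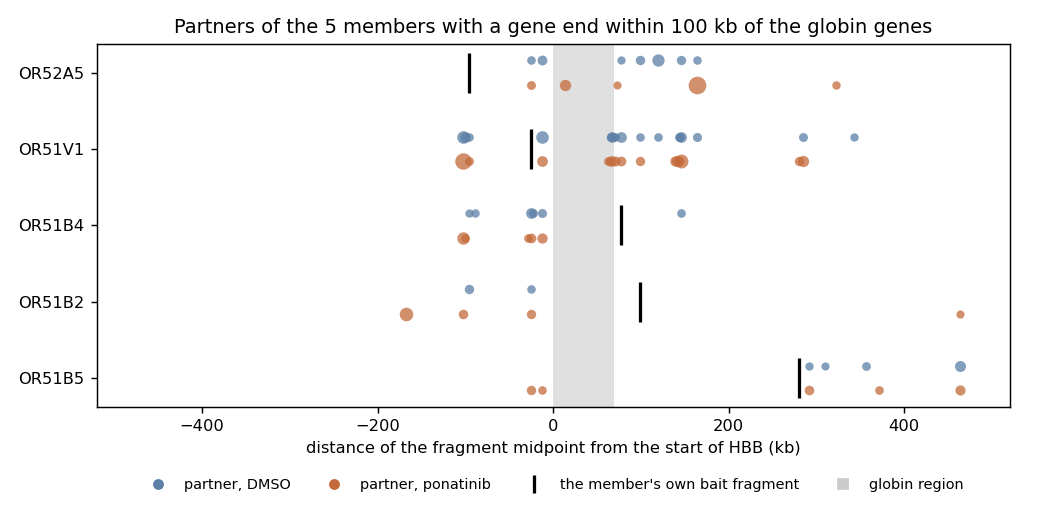
Partner fragments (points, larger with higher score) of the 5 members with a gene end within 100 kb of the globin genes, as distance in kb from the start of HBB, for DMSO and ponatinib, with the member's own bait fragment as a black bar (that of OR51B5 at 280 kb) and the globin region in grey. Of 73 points 68 lie within the 520 kb drawn on each side, most of them left or right of the grey region, and those inside it belong to OR51V1 and OR52A5.

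Genes that work with the receptors in olfactory neurons were not joined to them. Most of these genes lie on other chromosomes, with which the members had only 17 interactions in DMSO and 15 in ponatinib. With so few, the absence of these genes among the partners tells little. Of 15 such genes, which include the marker OMP, the channel subunits CNGA4 and CNGB1, the G protein gene GNAL, the adenylate cyclase gene ADCY3 and the regulators LHX2, EBF1 and LDB1, 13 had a listed bait and none was joined to a member in either list. By number 1 was called for more interactions in ponatinib, REEP1 with 1 and 4, and none for fewer. Another 5 did not differ by the rule and 7 had too few interactions to be tested. Of all genes tested 9.91% were called for more and 6.26% for fewer, and too few were tested here for a comparison. OR10W1, with the same numbers as REEP1, lost its call with scaling to list length. LHX2 had 21 interactions in DMSO and 20 in ponatinib, and EBF1 had 11 and 17.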

How the data were processed

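For each library a list of fragment pairs was deposited. A line names a bait fragment and a partner and gives a score, a value set by the authors whose lowest level in both lists is 5. Positions are on hg38, per the submitters' processing notes, and HindIII cutting and capture are as in the labels' protocols. Which aligner and interaction caller were run, and how the score is defined, is not given in the sources used here. Fragment size, mappability and probe design can affect which pairs were listed.

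An interaction was an unordered pair of fragments, and 1 of the 91306 ponatinib lines repeated a pair. Genes came from a RefSeq table of GRCh38.p14, and a gene took each listed bait that holds either of its ends. Shared interactions were identical pairs. Distances ran between fragment midpoints. Promoters were RefSeq sequences of the same build, with the outermost start of a gene where there were several. Scores were used only as deposited, to describe and filter.

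Named members were the 12 best connected, those called by number, those with the 5 highest scores of each list, those joined to or within 100 kb of the globin genes, the 4 most and 4 least connected of cluster 1, and up to 5 with the strongest partners on other chromosomes. Other genes named are the partners of these. The members and lists were chosen with earlier results of these data known. Intervals are 95% exact binomial (Clopper-Pearson) for shares and ratios, order statistics for medians and Newcombe's for differences of shares. They take interactions to be independent, although neighbouring fragments are not. The counting functions were tested on simulated data. Python 3.11.15, numpy 2.4.6, scipy 1.17.1 and matplotlib 3.10.9 were used. The alternatives were higher score minima, lists of equal length, other rules for gene ends, clusters and matching, and fragments left out.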

Additional observations from a re-analysis of the deposited data

How the results depend on the processing

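Of 198 values recomputed under 14 alternatives, 154 stayed within 1.5 times the number or inside the interval of the value reported. Most of the 44 others came from higher score minima, which leave fewer interactions. At scores of at least 7 and at least 10, member interactions were 92 and 34 in DMSO and 108 and 45 in ponatinib, members called were 0 in both directions, and median scores were 9 and 13 in DMSO and 9.04 and 13 in ponatinib. The share within the cluster was then 54.3% and 20.6% in DMSO and 56.5% and 28.9% in ponatinib. The share to another receptor gene was 31.5% and 14.7%, and 28.7% and 17.8%. The shared part was 40.2% and 50% in DMSO and, at scores of at least 10, 37.8% in ponatinib. The median distance at scores of at least 10 was 370 kb in DMSO and 368 kb in ponatinib. Medians per fragment were 1.00 and 0 in cluster 1 and in the other clusters, in both lists, and interactions with the globin region in DMSO were 1 and 0, and in ponatinib 0 at scores of at least 10. At scores of at least 7 the log2 ratios of OR51A4 and OR8J3 turned to -1 and 1, and at least 10 that of OR8J3 to 0.58, all on too few interactions to be called. With cluster gaps of 0.5 and 2 Mb the share within the cluster was 58.4% and 75.3% in DMSO and 58.1% and 73.4% in ponatinib. With only the bait that holds any listed start (65 members) the share to another receptor gene in ponatinib was 43.2%. With ends matched within 5 kb the shared part was 48.8% and 48.1%. Without alternate contigs, an alternative chosen after seeing the data, the share within the cluster in ponatinib was 73.0%. Lists of equal length, gene ends within 1 kb, fragments with no other gene, a pseudocount of 0.5, scaling to list length, leaving out the OR5B21 fragment and, chosen after seeing the data, baits that overlap a gene anywhere (110 members) moved none of the numbers, shares and medians they were tried on in this sense. Single calls were lost for OR10W1 with scaling to list length (log2 ratio 1.23, and 4 members called for more) and for OR56A3 with baits that overlap a gene anywhere (-0.19). No paired analysis was possible because each treatment has 1 library. The unknown depth of the libraries limits every comparison of numbers between the lists.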

Other observations

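Receptor genes on other chromosomes were counted in the same way. Of 221 such genes 90 had a listed bait, on 87 fragments, with 330 interactions in DMSO and 314 in ponatinib and a median of 3 per fragment in both. Bait-to-bait pairs made up 45.8% and 45.5% of these, and none had a partner on an alternate contig. Their median distance was 245 kb in DMSO (229 to 267) and 286 kb in ponatinib (261 to 300). Beyond 500 kb lay 9.74% of their same-chromosome interactions in DMSO (6.67% to 13.6%) and 18.1% in ponatinib (13.9% to 22.9%), against 23.9% (18.8% to 29.6%) and 21.8% (16.9% to 27.4%) for the chromosome 11 members. The clustered protocadherin genes, which encode adhesion proteins of neurons and also lie in tandem, had medians of 9.5 and 10 interactions per fragment on 32 fragments, and keratin and keratin-associated protein genes had a median of 3 in both lists on 77 fragments.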
